A study of Arabidopsis thaliana with 48 samples.

Results

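The genes described here encode the Calvin cycle enzymes other than Rubisco, the CP12 proteins, the leaf carbonic anhydrases CA1 and CA2, and the enzymes and transporters of photorespiration in Arabidopsis thaliana. They were chosen by what their products do, not by a measured value, though earlier results of these data were known. They are 33 of the 27655 genes in the count tables. Of these, 32 had enough counts to be tested in mRNA. The phosphoglycolate phosphatase gene PGLP1 (AT5G36700) did not, with at most 6 counts in any mRNA library. A near-identical copy may take or exclude its reads, which was not tested, and the PGLP1 values are uncertain throughout.

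The Calvin cycle uses ATP and NADPH to turn the phosphoglycerate made by Rubisco into triose phosphates, and then rebuilds the CO2 acceptor from most of them. When Rubisco takes up oxygen instead of CO2, photorespiration recovers the carbon through peroxisomes and mitochondria, and the ammonia released on the way is taken up again in the chloroplast. CP12 is a small chloroplast protein that holds glyceraldehyde-3-phosphate dehydrogenase and phosphoribulokinase together in an inactive complex in the dark, and carbonic anhydrase interconverts CO2 and bicarbonate.

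Rosettes of wild type Col-0 (WT) were compared with rosettes of the mta line, written mta ABI3:MTA in the labels, which lacks its own copy of the m6A methyltransferase MTA and carries MTA under the ABI3 promoter. That promoter is active in the embryo, so the line is a model of low MTA after the embryo stage and not of its complete absence. Plants of both lines were 17 days old when watering of one set stopped for 12 days (drought), while the other set stayed watered (control). Each of the 4 groups had 3 libraries of poly(A) RNA (mRNA, the input of the m6A precipitation), 3 of m6A-precipitated RNA, 3 of RNA from fractions with polysomes, and 3 of GMUCT, which sequences the ends of uncapped and cleaved transcripts. Whether replicates are separate plants is not given in the labels, and the p-values therefore reflect only how far these libraries vary, which may be technical. The tissue is bulk leaf, where fewer cells of a type and less RNA per cell cannot be told apart.

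Counts per library ranged from 1504013 to 5503037 in mRNA, from 35833742 to 43032763 in polysomal RNA and from 1313457 to 12421168 in GMUCT. Levels below are counts-per-million (CPM) of the TMM-scaled library. Replicate 3 of the WT control mRNA libraries stood apart: it was the shallowest, and 11.7% of its counts were plastid genes against 1.93% to 4.36% in the others. Its chi-square per gene against replicates 1 and 2 was 23.0 and 22.8, against 2.42 between those. To a lesser degree replicate 1 of the mta control mRNA libraries also differed, with 12.0 and 7.55 against replicates 2 and 3, and 3.91 between those. MTA (AT4G10760) mRNA stood at 17.7, 18.2 and 18.9 CPM in WT control and at 9.75, 6.97 and 7.40 CPM in mta control, a log2 difference of -1.16 (adjusted p = 9.6e-05). In drought that difference was -1.28 (adjusted p = 3.07e-06). The mesophyll marker sum (RBCS1A, CAB1) ran from 24817 to 27731 CPM in WT control, from 5820 to 5981 CPM in WT drought, from 32295 to 37070 CPM in mta control and from 9631 to 10563 CPM in mta drought. Flower markers summed to at most 7.77 CPM and seed markers to at most 0.53 CPM in any mRNA library.

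In watered WT leaves the members were abundant mRNAs. Per kilobase of gene span, FBA2 was the highest member at 636 CPM per kb, rank 103 of 17666 tested genes, and AT1G80380 was the lowest tested member at rank 1701. All members together summed to 22966, 21652 and 22445 CPM in WT control and to 11309, 11360 and 10767 CPM in WT drought. The mta libraries held 22469, 21640 and 21696 CPM in control and 8675, 8977 and 8805 CPM in drought. Drought libraries were below control libraries in both lines without overlap, and mta drought libraries were below WT drought libraries. As a share of nuclear counts these sums were 2.39% in WT control, 1.12% in WT drought, 2.29% in mta control and 0.913% in mta drought.

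**Figure D1:**
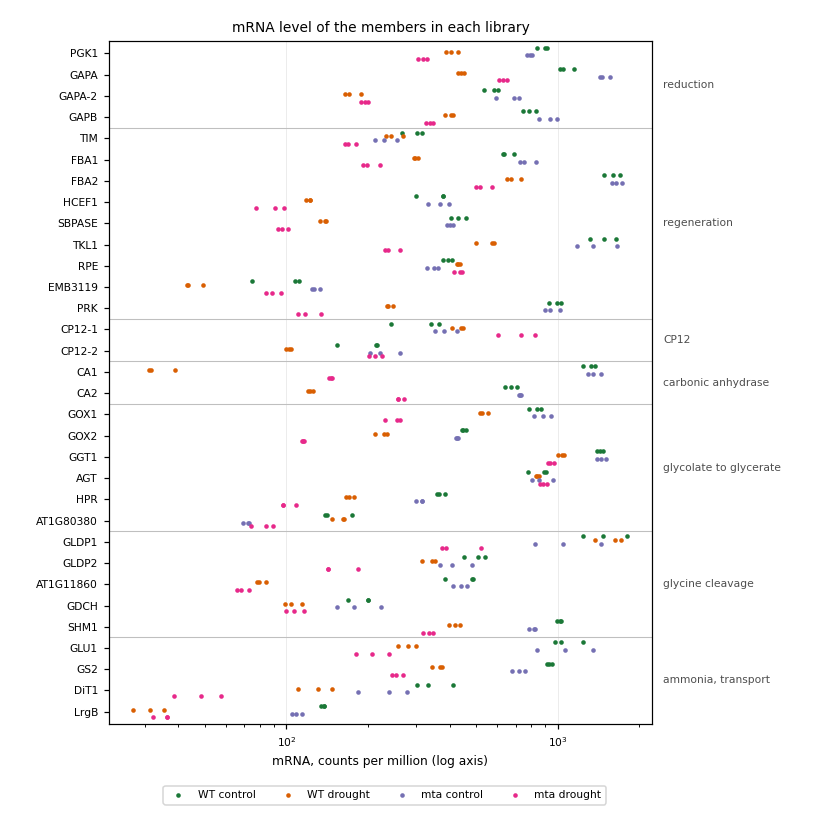
mRNA level of the 32 tested members in CPM on a log axis, with 1 point per library and 3 libraries per group, ordered by role. Drought points (orange, WT and pink, mta) lie left of the control points for most members, the points of AGT lie close together in all groups, and CA1 has the widest gap between groups.

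Most of these mRNAs fell in drought. In WT, 27 of 32 members fell and 1 rose, with a median log2 change of -1.14 against -0.01 over all genes. The background was 35.3% of genes fallen and 32.6% risen. In mta 27 fell and 2 rose, with a median of -1.48, against 35.3% of genes fallen and 35.1% risen. The same 26 members fell in both lines, and CP12-1 rose in both. Every drought library lay below every control library for 26 members in WT and for 27 in mta. How many of all genes were separated in that way was not counted, so these 2 counts have no background. Markers of other cell types moved too: 4 of 4 tested guard cell markers and 2 of 2 xylem markers fell in both lines. Of 3 epidermis markers 2 fell and 1 rose in WT and 3 fell in mta. Of 2 phloem markers 2 rose in WT, and 1 rose and 1 fell in mta. Of 3 root markers 1 was tested, and it fell in both lines. The guard cell sum ran from 39.2 to 46.6 CPM in WT control and from 14.7 to 20.5 CPM in WT drought, and from 58.5 to 64.1 CPM and 19.4 to 28.6 CPM in mta. Their part in the members' change was not tested.

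The 4 reduction genes fell in both lines. They encode phosphoglycerate kinase (PGK1, AT3G12780) and the A and B subunits of chloroplast glyceraldehyde-3-phosphate dehydrogenase, which spends the NADPH of the cycle. GAPA (AT3G26650), the member of the group with most mRNA per kb, stood at 1154, 1048 and 1022 CPM in WT control and at 453, 439 and 429 CPM in WT drought. The mta control libraries held 1452, 1429 and 1563 CPM and the mta drought libraries 627, 653 and 606 CPM. Drought libraries lay below control libraries in both lines without overlap, and mta was above WT in both regimes. The log2 drought effect was -1.29 ± 0.08 (SE) in WT (adjusted p = 5.7e-12) and -1.24 ± 0.08 in mta (adjusted p = 1.3e-11). The B subunit gene GAPB (AT1G42970) stood at 830, 784 and 747 CPM in WT control and at 412, 384 and 406 CPM in WT drought. The mta libraries held 855, 998 and 935 CPM in control and 328, 346 and 340 CPM in drought. The mta drought libraries were the lowest of the 4 groups, and the drought effect was 0.48 log2 more negative in mta (difference -0.48 ± 0.12, adjusted p = 0.0027). GAPA-2 (AT1G12900) fell by 1.72 and 1.78 log2 in WT and mta, and PGK1 by 1.12 and 1.31.

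Of the 9 regeneration genes 8 fell in each line, and 6 of them fell further in mta than in WT. Fructose-bisphosphate aldolase FBA2 (AT4G38970), which joins triose phosphates, stood at 1700, 1485 and 1607 CPM in WT control and at 648, 734 and 672 CPM in WT drought. The values in mta were 1637, 1722 and 1588 CPM in control and 516, 574 and 498 CPM in drought. The control groups overlapped and mta drought lay below WT drought, with log2 drought effects of -1.22 ± 0.09 in WT and -1.64 ± 0.09 in mta. Transketolase TKL1 (AT3G60750), which moves carbon units between sugar phosphates, stood at 1481, 1314 and 1638 CPM in WT control and at 574, 582 and 499 CPM in WT drought. Its mta levels were 1660, 1179 and 1348 CPM in control and 238, 232 and 262 CPM in drought. The control groups overlapped, and all mta drought libraries lay below all WT drought libraries. TKL1 fell by 1.42 log2 in WT and by 2.52 in mta (difference -1.10 ± 0.16, adjusted p = 1.2e-05).

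Phosphoribulokinase PRK (AT1G32060), which makes the CO2 acceptor, had the steepest fall of the regeneration genes, from 1027, 928 and 992 CPM to 248, 236 and 237 CPM in WT and from 1020, 938 and 898 CPM to 117, 111 and 134 CPM in mta. Its difference between the lines' drought effects was -0.95 ± 0.13 (adjusted p = 4.1e-06). FBA1 (AT2G21330), HCEF1 (AT3G54050) and SBPASE (AT3G55800) also fell further in mta, with differences of -0.80, -0.50 and -0.39. SBPASE is sedoheptulose-bisphosphatase, a step found in this cycle and not in glycolysis. Ribulose-phosphate epimerase RPE (AT5G61410) did not pass the test in WT (log2 0.13) and rose in mta by 0.31. Plastid triose phosphate isomerase TIM (AT2G21170) fell by 0.26 and 0.43. EMB3119 (AT3G04790) was listed among the regeneration genes as RPI3, though its annotated symbol names no enzyme. It fell by 1.15 log2 in WT and by 0.52 in mta (difference 0.64 ± 0.17, adjusted p = 0.0047). With the gene span trend removed that difference was 0.18 and no longer passed.

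The CP12 genes differed from each other in drought: CP12-1 rose in both lines, and CP12-2 fell in WT. CP12-1 (AT2G47400) stood at 340, 366 and 242 CPM in WT control and at 440, 408 and 449 CPM in WT drought. In mta it stood at 352, 427 and 382 CPM in control and at 733, 828 and 604 CPM in drought. All drought libraries lay above the control libraries of their line, and the low value of 242 CPM belongs to the WT control library that stood apart. CP12-1 rose by 0.44 ± 0.13 log2 in WT (adjusted p = 0.0045) and by 0.90 ± 0.13 in mta (adjusted p = 1.9e-06). Without that library the WT rise was 0.32 and still passed. CP12-2 (AT3G62410) stood at 214, 216 and 154 CPM in WT control and at 104, 99.4 and 102 CPM in WT drought. Its mta levels were 203, 263 and 222 CPM in control and 212, 224 and 202 CPM in drought, so the mta groups overlapped while the WT groups did not. CP12-2 fell by 0.95 ± 0.12 log2 in WT and its mta effect of -0.11 ± 0.11 did not pass (difference 0.84 ± 0.16, adjusted p = 0.00035). Both genes have short spans, and mRNA changes in mta drought followed span over all genes (Spearman's rho -0.357 for mta against WT in drought). With that trend removed the differences were -0.03 for CP12-1 and 0.33 for CP12-2, and neither passed, while the CP12-2 effect in mta was -0.33 and passed.

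Of the tested members CA1 had the largest mRNA fall in both lines, and both carbonic anhydrase genes fell less in mta than in WT. CA1 (AT3G01500, TAIR10 chromosome 3, 194426 to 198664) encodes the main chloroplast enzyme. It stood at 1333, 1238 and 1368 CPM in WT control and at 31.7, 38.7 and 31.1 CPM in WT drought. In mta it stood at 1441, 1294 and 1347 CPM in control and at 147, 146 and 144 CPM in drought. The control groups overlapped, and every mta drought library held more than 3 times the CA1 level of every WT drought library. CA1 fell by 5.28 ± 0.11 log2 in WT (adjusted p = 2.6e-20) and by 3.22 ± 0.10 in mta (adjusted p = 1.7e-17), and the difference was 2.06 ± 0.13 (adjusted p = 7.8e-11). Without the WT control library that stood apart the difference was 1.98.

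CA2 (AT5G14740, TAIR10 chromosome 5, 4757856 to 4762666) stood at 706, 672 and 641 CPM in WT control and at 122, 125 and 121 CPM in WT drought. Its mta levels were 725, 731 and 722 CPM in control and 259, 271 and 258 CPM in drought. The mta drought libraries again lay between WT drought and both control groups without overlap. The log2 drought effects were -2.46 ± 0.08 in WT and -1.47 ± 0.08 in mta (difference 0.99 ± 0.11, adjusted p = 4.6e-07). With the span trend removed the differences were 2.38 for CA1 and 1.42 for CA2, and both passed. The ratio of CA1 to CA2 mRNA was 1.95 in WT control, 0.275 in WT drought, 1.87 in mta control and 0.555 in mta drought, so CA2 was the more abundant in drought in both lines. The mesophyll marker sum also stood higher in mta drought than in WT drought, and its part was not tested.

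**Figure D2:**
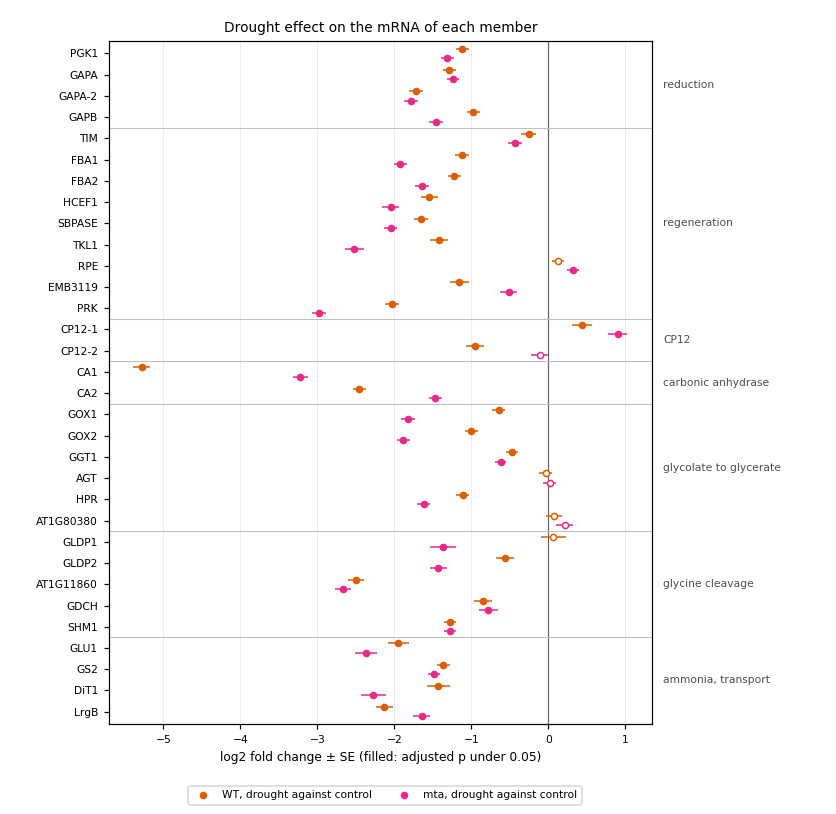
Log2 drought effect on mRNA of the 32 tested members with standard error, WT in orange and mta in pink, filled where the adjusted p was under 0.05. CA1 lies at -5.28 in WT and -3.22 in mta, GLDP1 lies near 0 in WT and at -1.37 in mta, and CP12-1 lies right of 0 in both lines.

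In the path from glycolate to glycerate 4 of the 6 tested genes fell in each line. Glutamate:glyoxylate aminotransferase GGT1 (AT1G23310), which turns glyoxylate into glycine, stood at 1474, 1438 and 1396 CPM in WT control and at 1057, 1003 and 1038 CPM in WT drought. In mta it stood at 1394, 1507 and 1445 CPM in control and at 966, 940 and 919 CPM in drought. The drought groups lay below the control groups without overlap. GGT1 fell by 0.48 ± 0.08 log2 in WT and by 0.62 ± 0.08 in mta, and the difference of -0.14 did not pass. The peroxisomal glycolate oxidase gene GOX1 (AT3G14420) stood at 867, 839 and 784 CPM in WT control and at 517, 553 and 525 CPM in WT drought. Its mta levels were 821, 948 and 883 CPM in control and 231, 263 and 256 CPM in drought. Control groups overlapped, and in drought mta lay below WT by more than 2-fold in the means. GOX1 fell by 0.64 ± 0.09 log2 in WT and by 1.82 ± 0.09 in mta (difference -1.18 ± 0.12, adjusted p = 1.3e-07, and -1.15 with the span trend removed). The adjacent GOX2 (AT3G14415) fell by 1.00 and 1.88 log2, and hydroxypyruvate reductase HPR (AT1G68010) by 1.11 and 1.62.

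Serine:glyoxylate aminotransferase AGT (AT2G13360) passed the test in no mRNA contrast, with log2 values from -0.04 to 0.07. AT1G80380 was listed among the glycolate to glycerate genes as GLYK, though the annotation gives it no symbol beyond its locus name. It stood at 138, 141 and 174 CPM in WT control and at 147, 162 and 163 CPM in WT drought. The mta line had 72.1, 72.7 and 69.3 CPM in control and 84.2, 73.8 and 89.3 CPM in drought. It was lower in mta in both regimes without overlap (log2 -1.07 and -0.93, both with adjusted p = 1.7e-07), and its drought effects did not pass.

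Of the 5 glycine cleavage genes 4 fell in WT and 5 in mta. The P protein of glycine decarboxylase, which removes CO2 from glycine in mitochondria, is encoded by GLDP1 (AT4G33010) and GLDP2 (AT2G26080). GLDP1 stood at 1473, 1242 and 1809 CPM in WT control and at 1622, 1715 and 1372 CPM in WT drought. The values in mta were 1450, 828 and 1046 CPM in control and 376, 388 and 523 CPM in drought. The WT groups overlapped, and the mta drought libraries lay below all others. The log2 drought effect was 0.06 ± 0.16 in WT (adjusted p = 0.75) and -1.37 ± 0.17 in mta (adjusted p = 2.3e-07), and the difference was -1.43 ± 0.23 (adjusted p = 4.7e-05). It was -1.0 with the span trend removed and still passed.

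GLDP2 fell by 0.56 log2 in WT and by 1.43 in mta (difference -0.86, and -0.36 with the span trend removed, which passed). AT1G11860 fell by 2.50 log2 in WT, and its mta value was -2.67. The gene of the glycine decarboxylase H protein, GDCH (AT2G35370), fell by 0.85 and 0.78. Mitochondrial serine hydroxymethyltransferase SHM1 (AT4G37930), which makes serine, fell by 1.28 and 1.27, and the drought effects of these 3 genes did not differ past the threshold between the lines.

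All 4 ammonia and transport genes fell in both lines. Chloroplast glutamine synthetase GS2 (AT5G35630) stood at 927, 915 and 956 CPM in WT control and at 376, 368 and 343 CPM in WT drought. In mta it stood at 756, 677 and 719 CPM in control and at 254, 244 and 270 CPM in drought. GS2 was lower in mta in both regimes without overlap, with log2 values of -0.38 ± 0.08 in control (adjusted p = 0.002) and -0.50 in drought, while its drought effects of -1.36 and -1.49 did not differ past the threshold. The plastid 2-oxoglutarate/malate translocator gene DiT1 (AT5G12860) stood at 334, 303 and 412 CPM in WT control and at 131, 147 and 110 CPM in WT drought. Its mta levels were 278, 183 and 238 CPM in control and 48.5, 38.6 and 57.3 CPM in drought. The groups did not overlap, and the difference between its drought effects was -0.85 ± 0.22 (adjusted p = 0.0038). Ferredoxin-dependent glutamate synthase GLU1 (AT5G04140), the member with the longest span at 8704 bases, fell by 1.95 log2 in WT and by 2.37 in mta. LrgB (AT1G32080) was listed among these genes as PLGG1, though its annotated symbol gives no role. It fell by 2.13 and 1.65 (difference 0.48 ± 0.15, adjusted p = 0.016).

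The difference between the drought effects on mRNA passed for 19 members, more negative in mta for 13 and less negative or more positive for 6, with a median of -0.18 against 0.03 over all genes. The background was 18% of genes lower and 19.6% higher. The 6 higher members were EMB3119, LrgB and both CP12 and both carbonic anhydrase genes. In mta against WT in drought 19 members were lower and 6 higher (median -0.37), against 26.1% of genes lower and 26.6% higher. In control 7 were lower and 2 higher (median -0.05), against 9.28% and 8.5%. The higher ones in control were GAPA and EMB3119. That control count rested on single libraries. The 7 became 4 without replicate 1 of WT control or replicate 3 of mta control. The 2 became 1 without replicate 3 of WT control or of mta control or replicate 2 of the latter, and 5 without mta control replicate 1. DESeq2 called 4 higher and 7 lower. Without WT control replicate 3 the drought counts were 1 risen and 27 fallen in WT and 2 and 27 in mta, and the difference passed for 6 higher and 14 lower, GLU1 being the added one by its value of -0.58 (adjusted p = 0.017), which is 0.39 in all libraries with the span trend removed.

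A further 34 genes of the same pathways, mostly isoforms, regulators and minor family members, served as comparison, and 33 could be tested in mRNA. In WT drought 15 fell and 6 rose (median -0.19), and in mta 17 fell and 9 rose (median -0.24). AT1G32470 fell by 2.53 log2 in WT and by 2.29 in mta. The peroxisomal catalase gene CAT2, which removes the hydrogen peroxide of glycolate oxidation, fell by 1.55 in mta and was 1.21 lower in mta than in WT in drought. GOX3, a further glycolate oxidase gene, rose by 1.47 log2 in mta and was higher in mta in control (0.90) and in drought (1.95). All 13 light-harvesting LHCB genes fell in both lines (medians -3.21 and -2.62), and so did all 5 Rubisco genes (medians -3.86 and -3.56), so the median fall of the members was the smaller.

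Polysomal RNA by itself followed the drought fall. In WT 30 of 33 members fell and 2 rose, against 40.1% of genes fallen and 36.3% risen. In mta 29 fell and 3 rose, against 32.8% fallen and 37.8% risen. The 2 risen in WT became 1 without WT control replicate 2 or without WT drought replicate 2 or 3, and 1 by DESeq2. In control 32 of 33 members were lower in mta, against a background of 21% of genes lower and 19.1% higher. None was higher by edgeR, by DESeq2 or at an unadjusted p under 0.05. GGT1 is an example: its polysomal level was 1325, 1310 and 1323 CPM in WT control and 745, 727 and 724 CPM in mta control (log2 -0.85). Of the values that passed, AT1G80380 had the most negative at -1.18, followed by CA2 at -1.11 and SHM1 at -1.09. The difference of the drought effects was higher for 20 members and lower for 3, against 26.5% and 18.9% of genes. Those 3 became 9 without WT drought replicate 1 or mta drought replicate 3 and 8 without mta drought replicate 1, 8 by DESeq2 and 7 with DESeq2's size factors in edgeR.

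Polysome association here is the log2 change of polysomal RNA minus that of mRNA, tested in 1 model over both kinds of library. In control plants it was lower in mta than in WT for 27 of 33 members and higher for none, against 5.89% of genes lower and 2.37% higher. The median was -0.62 against -0.04 over all genes. DESeq2 called 26 lower and 0 higher, and 0 were higher at an unadjusted p under 0.05. Apart from PGLP1, 32 of 32 members had a negative value. The members that did not pass were TIM, TKL1, AT1G80380, GLDP1, DiT1 and PGLP1. Without WT control mRNA replicate 3, 27 members were still lower and 0 higher. The 13 LHCB genes (median -0.73) and the 5 Rubisco genes (median -0.65) were also all lower, and of the 34 further pathway genes 11 were lower and 2 higher (median -0.23).

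CA2 had the most negative control value that passed. Its polysomal level was 1061, 1023 and 1082 CPM in WT control and 482, 507 and 474 CPM in mta control, while its mRNA was at 641 to 706 CPM and at 722 to 731 CPM. Its polysome association differed by -1.27 ± 0.07 log2 (adjusted p = 6.3e-13). GAPA polysomal RNA stood at 1829, 1755 and 1768 CPM in WT control and at 1126, 1183 and 1187 CPM in mta control, against a higher mRNA level in mta. That gave -1.13 ± 0.08 (adjusted p = 3.4e-11). GAPB polysomal RNA fell from 1257, 1181 and 1218 CPM in WT control to 719, 750 and 719 CPM in mta control (association -1.03 ± 0.09). For FBA1 the levels were 1009, 940 and 973 CPM and 562, 619 and 587 CPM (association -1.02 ± 0.09). For these 4 genes the mta control polysomal libraries lay below all WT control libraries, and with the span trend removed CA2 and GAPA stood at -1.21 and -1.12.

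**Figure D3:**
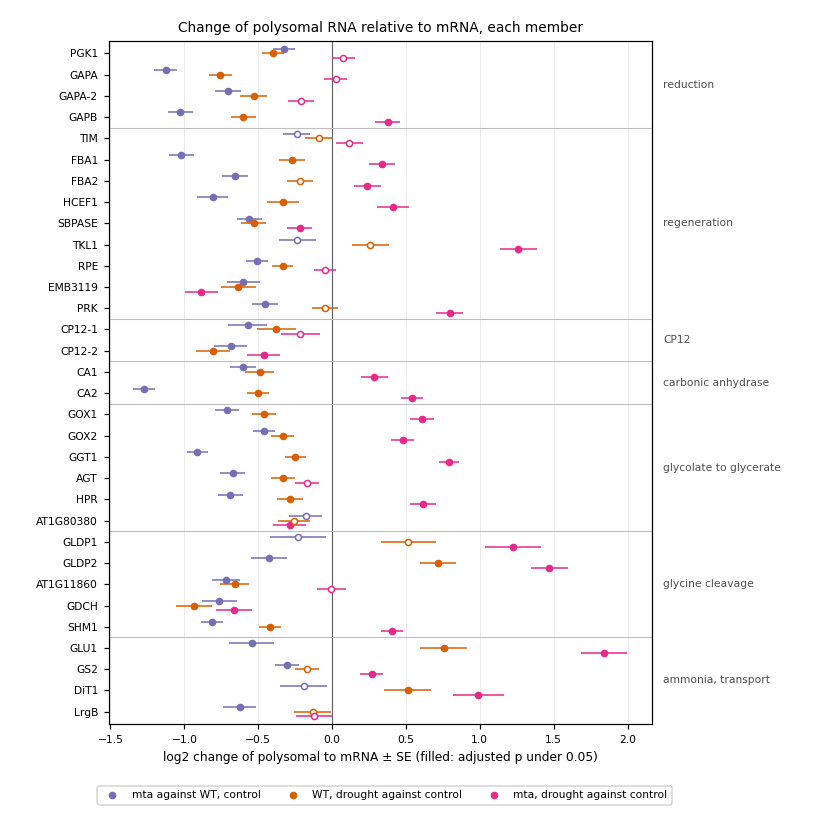
Log2 change of polysomal RNA relative to mRNA with standard error for 32 members (PGLP1 left out), for mta against WT in control (purple), drought in WT (orange) and drought in mta (pink), filled where the adjusted p was under 0.05. Purple points all lie left of 0, and pink points lie right of the orange points for 30 members.

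The median drought change of this measure had opposite signs in the 2 lines. In WT the association fell for 21 members and rose for 3, with a median of -0.34 against 0.07 over all genes, the background being 6.93% fallen and 11.8% risen. In mta it rose for 18 and fell for 5, with a median of 0.29 against 0.05, the background being 21.6% risen and 14% fallen. The split in mta depended on the scaling: 12 rose and 9 fell with TMM within each assay, which shifts the median of all genes in mta from 0.05 to -0.10, and 15 and 9 by DESeq2 and 14 and 8 with its size factors. Relative to all genes the members' median in mta was 0.24 and 0.23 under the main and the within-assay scaling. The 5 fallen became 3 without mta control mRNA replicate 3. They became 9 to 11 without any other 1 library, except the 3 WT control mRNA libraries and mta drought mRNA replicate 2. The 18 risen became 11 without any 1 mta polysomal library, without WT drought mRNA replicate 1 or 2, without mta control mRNA replicate 2 and without mta drought mRNA replicate 1.

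The difference between the lines in this drought effect was positive and past the threshold for 19 members and negative for none, against 6.79% of genes higher and 2.8% lower. The median was 0.66 against 0.03 over all genes. At an unadjusted p under 0.05, 24 were higher and 0 lower, and DESeq2 called 21 higher and 0 lower. TMM within each assay gave 17 and 0, removal of the span trend 21 and 0, and the median relative to all genes was 0.63 under both scalings. Of the 15 tested Calvin cycle members 8 passed, and of the 16 photorespiratory members 9, both carbonic anhydrases making up the rest. The 13 LHCB genes had 6 higher (median 0.44), the 5 Rubisco genes 4 (median 0.73) and the further pathway genes 3.

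GLU1 had the largest difference that passed. Its polysomal level was 517, 533 and 542 CPM in WT control and 218, 220 and 233 CPM in WT drought. In mta it was 402, 370 and 366 CPM in control and 263, 246 and 251 CPM in drought. Its mRNA fell from 1026, 977 and 1237 CPM to 299, 281 and 258 CPM in WT and from 1346, 840 and 1062 CPM to 181, 207 and 240 CPM in mta. Its mRNA was thus lower and its polysomal RNA higher in mta drought than in WT drought without overlap, but with the span trend removed the mRNA difference turned from -0.42 to 0.36 and passed (adjusted p = 0.00087). The association rose by 0.75 ± 0.16 log2 in WT and by 1.84 ± 0.16 in mta (difference 1.09 ± 0.22, adjusted p = 0.0015). GLU1 has a long span, and association in mta drought followed span over all genes (Spearman's rho 0.519). With that trend removed its values were -0.02 in WT, 0.54 in mta and 0.56 for the difference, which passed.

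GOX1 polysomal RNA went from 1188, 1157 and 1147 CPM to 504, 533 and 525 CPM in WT and from 778, 796 and 771 CPM to 339, 327 and 310 CPM in mta. Its association fell by 0.46 log2 in WT and rose by 0.61 in mta (difference 1.07 ± 0.12, adjusted p = 3.1e-07). GGT1 polysomal RNA stood at 774, 772 and 757 CPM in WT drought and at 818, 794 and 775 CPM in mta drought, so that it fell by 0.78 log2 from its control level in WT and rose by 0.12 in mta. That rise did not hold with the span trend removed (-0.00583, adjusted p = 0.88), and it ran from 0.00878 to 0.133 on leaving out a library. For GGT1 the difference between the lines in association was 1.04 ± 0.10 (adjusted p = 1.6e-08). CA2 polysomal RNA stood at 132, 129 and 130 CPM in WT drought and at 247, 256 and 240 CPM in mta drought. Its drought effect on association differed between the lines by 1.04 ± 0.11 (adjusted p = 8.8e-08). With the span trend removed GOX1, GGT1 and CA2 stood at 1.02, 0.87 and 0.71, and all 3 passed.

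After GLU1, the P protein genes and TKL1 had the largest rise of association in mta drought. GLDP2 polysomal RNA stood at 193, 188 and 182 CPM in mta control and 185, 189 and 186 CPM in mta drought, while its mRNA fell from 483, 370 and 409 CPM to 143, 142 and 184 CPM (association 1.47 ± 0.12). TKL1 polysomal RNA fell from 1101, 1151 and 1118 CPM to 463, 435 and 463 CPM in mta, less than its mRNA (association 1.26 ± 0.13). GLDP1 stood at 741, 724 and 703 CPM and 625, 620 and 643 CPM (association 1.22 ± 0.19). With the span trend removed these 3 stood at 0.68, 0.85 and 0.53.

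The most negative values in WT drought belonged to GDCH, CP12-2 and GAPA. GDCH polysomal RNA fell from 452, 431 and 462 CPM to 121, 131 and 122 CPM in WT, an association change of -0.94 ± 0.12 (adjusted p = 1.7e-06). CP12-2, with the shortest span at 637 bases, fell from 508, 512 and 514 CPM to 144, 146 and 144 CPM (association -0.81 ± 0.11). GAPA polysomal RNA fell from its WT control level to 411, 425 and 411 CPM in WT drought (association -0.76 ± 0.08). With the span trend removed these values were -0.67, -0.51 and -0.67. Each of the 3 genes had no overlap between WT control and WT drought polysomal libraries.

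In mta against WT within drought the association was lower for 12 members and higher for 5, with a median of -0.05 against -0.04 over all genes, the background being 8.03% lower and 8.72% higher. DESeq2 called 10 lower and 9 higher, and DESeq2's size factors in edgeR gave 7 lower and 6 higher. The 12 became 7 without any 1 of 10 libraries: polysomal WT drought replicates 2 and 3, mta control replicate 3 and all 3 of mta drought, and mRNA WT drought replicates 1, 2 and 3 and mta drought replicate 1. Of those that passed, EMB3119 was the lowest at -0.85 ± 0.12 and LrgB stood at -0.61 ± 0.13. TKL1 was the highest at 0.77 ± 0.13, followed by GLU1 at 0.54 ± 0.16.

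**Figure D4:**
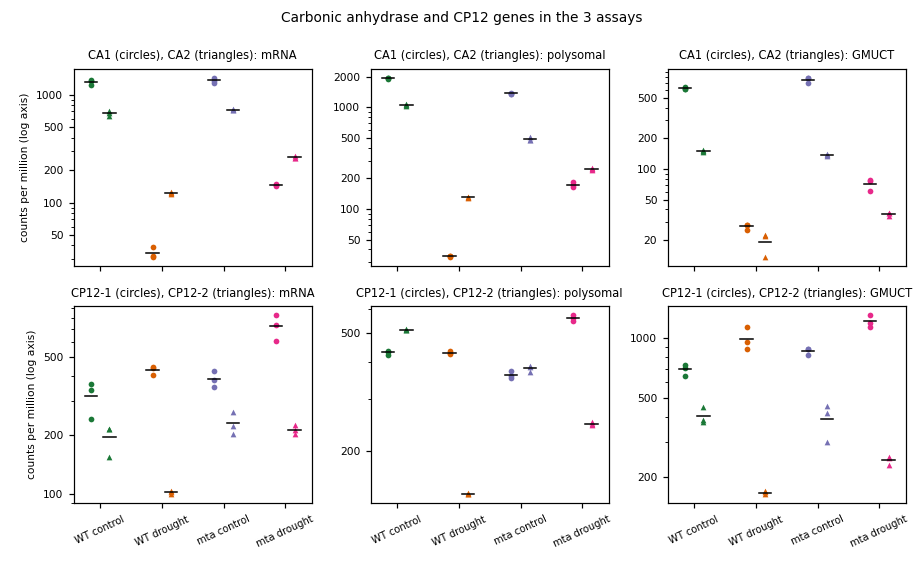
Levels in CPM on log axes of CA1 and CA2 (upper row) and CP12-1 and CP12-2 (lower row) in mRNA, polysomal and GMUCT libraries, with 1 point per library, 3 libraries per group and a bar at the mean. CA1 lies above CA2 in both control groups, and in drought it lies below CA2 in mRNA and polysomal RNA but above it in GMUCT.

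For the carbonic anhydrases the polysomal and uncapped RNA showed the same order of groups in drought as mRNA. CA1 polysomal RNA stood at 1965, 1908 and 1960 CPM in WT control, 34.5, 33.5 and 34.4 CPM in WT drought, 1370, 1379 and 1368 CPM in mta control and 183, 165 and 170 CPM in mta drought. CA1 GMUCT levels were 605, 609 and 640 CPM in WT control, 28.1, 28.3 and 25.3 CPM in WT drought, 783, 789 and 691 CPM in mta control and 60.3, 77.0 and 76.6 CPM in mta drought. In all 3 assays mta drought lay above WT drought without overlap, with log2 values of 2.11 in mRNA, 2.34 in polysomal RNA and 1.41 in GMUCT. The ratio of CA1 to CA2 stayed above 1 in GMUCT, at 4.11 in WT control, 1.44 in WT drought, 5.49 in mta control and 1.95 in mta drought.

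CP12-1 rose in drought in mRNA and GMUCT of both lines but not in WT polysomal RNA, where it stood at 431, 435 and 422 CPM in control and 428, 424 and 434 CPM in drought. That WT polysomal value was 0.59 log2 with the span trend removed and passed as a rise. In mta its polysomal level went from 353, 373 and 357 CPM to 548, 574 and 561 CPM. Its association fell by 0.38 log2 in WT, and the mta value of -0.22 did not pass. The mta value turned to 0.36 with the span trend removed and passed (adjusted p = 0.0054). CP12-1 GMUCT levels ran from 648 to 735 CPM in WT control and from 884 to 1140 CPM in WT drought. The polysomal ratio of CP12-1 to CP12-2 was 0.839 in WT control and 2.96 in WT drought, and 0.951 and 2.26 in mta.

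Uncapped RNA of most members also fell in drought. In GMUCT by itself 29 of 32 tested members fell in WT drought and 1 rose, against 33.5% of genes fallen and 27.8% risen. In mta 30 fell and 1 rose, against 28.9% fallen and 25.6% risen. The uncapped share, the log2 change of GMUCT minus that of mRNA, moved for fewer members. In WT drought it fell for 4 (FBA2, FBA1, GAPA-2 and GAPB) and rose for CA1, against 1.66% of genes fallen and 2.93% risen. DESeq2 called 9 fallen, 12 had an unadjusted p under 0.05, and TMM within each assay gave 8. The 4 became 8 without WT control mRNA replicate 3. They became 2 without GMUCT WT drought replicate 1 or 3, without mRNA WT control replicate 1 or 2, and without any 1 of the WT drought mRNA libraries. FBA2 GMUCT levels fell from 859, 914 and 909 CPM to 204, 208 and 200 CPM in WT (share -0.84 ± 0.14, adjusted p = 0.00034). The share of CA1 rose by 0.85 ± 0.17 (adjusted p = 0.003).

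In mta drought the uncapped share rose for 4 members and fell for 6, against 10.4% of genes risen and 8.64% fallen. The 6 became 11 without WT control mRNA replicate 3. They became 3 without GMUCT mta control replicate 3 or mta drought replicate 1, and without mRNA mta control replicate 1 or 3 or mta drought replicate 2. In mta against WT no member passed in control, against 0.183% of genes lower and 0.167% higher by edgeR. There 9 were lower and 0 higher at an unadjusted p under 0.05, and DESeq2 called 3 lower. In drought 4 were higher and 6 lower, against 7.18% and 9.28%. The difference between the lines passed for 2 higher and 2 lower, against 3.79% and 3.38%, and DESeq2 called 5 higher and 2 lower.

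GLU1 had the largest difference in uncapped share. Its GMUCT level was 713, 683 and 723 CPM in WT control and 150, 144 and 134 CPM in WT drought. In mta it was 579, 595 and 591 CPM in control and 230, 247 and 238 CPM in drought. mta drought lay above WT drought without overlap. Its mRNA lay below, a direction that turned with the span trend removed (0.36). The difference in uncapped share was 1.43 ± 0.26 (adjusted p = 0.0019). TKL1 GMUCT levels fell from 330, 362 and 322 CPM to 157, 110 and 112 CPM in mta (difference in uncapped share 1.05 ± 0.26, adjusted p = 0.014). GDCH GMUCT levels fell from 47.2, 43.8 and 40.3 CPM to 15.5, 10.8 and 11.8 CPM in mta. In WT they fell from 45.1, 42.9 and 54.8 CPM to 24.8, 25.5 and 32.0 CPM (difference in uncapped share -1.09 ± 0.29, adjusted p = 0.022). With the span trend removed these differences were 0.62, 0.77 and -0.75, and none of the 3 passed by edgeR, while the CA1 difference went from -0.93 to -1.29 and passed.

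Peaks called by the authors in each m6A library over its input marked where the m6A precipitation enriched RNA. Whether the RNA at each peak was methylated was not tested. A region in at least 2 of 3 libraries of a group overlapped 17 of the 33 members in WT control, 27 in WT drought, 16 in mta control and 22 in mta drought. Over all genes with enough mRNA the shares were 55.6%, 58.4%, 48.5% and 43.9%. Members with a peak per library numbered 20, 19 and 12 in WT control, 29, 26 and 28 in WT drought, 11, 18 and 16 in mta control, and 20, 21 and 25 in mta drought. Over all tested genes those numbers were 10201, 10728 and 7779, 10364, 9980 and 10577, 8770, 7160 and 9721, and 7675, 6914 and 8855 in the same order. For the members, WT drought libraries were the highest without overlap, and both lines had lower counts in control, with WT control replicate 3 at 12 members and a low number over all genes. The mta control count of 16 became 9 without replicate 2 and 10 without replicate 3. With peaks of −log10 q of at least 10 alone, the members with a region numbered 2, 12, 2 and 5 in WT control, WT drought, mta control and mta drought, against 26.6%, 30.3%, 19.8% and 18% of genes. The depth behind these values is not known from the peak lists. Input mRNA of most members differed between the groups, and its part in the calls was not tested.

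For 11 of 33 members 1 and the same region was called in at least 2 libraries of each of the 4 groups. They were PGK1, TIM, HCEF1, GOX2, GGT1, HPR, AT1G80380, GLDP2, GLU1, DiT1 and LrgB. PRK had a region in each group, but not the same one: its end region was in 1 library of mta control and its start region in none of WT control. CP12-1 and CP12-2 had no peak in any library, and GAPA, GAPA-2 and AGT had one in a single library. Most regions lay near the gene end. The GLU1 region, at chr5:1138202-1138410 of TAIR10 and 98.3% along the span, had fold enrichments over input, as the authors' peak caller gave them, of 3.45, 2.49 and 3.66 in WT control and 7.39, 5.09 and 7.38 in WT drought. Its mta values were 2.47, 4.88 and 2.78 in control and 5.77, 6.60 and 6.85 in drought. Drought values lay above control values without overlap in both lines, and WT and mta overlapped within each regime.

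Both carbonic anhydrase genes had regions in drought that were not called in WT control. CA1 had a region towards the gene end at chr3:195007-195186 in the 3 WT drought libraries, with fold enrichments of 3.93, 3.84 and 4.02, and in no other library. A further CA1 region 925 bases from the gene start, at chr3:197689-197902, had values of 2.65, 5.86 and 3.50 in WT drought and 2.92, 2.13 and 3.72 in mta drought, and was called in mta control in 2 libraries at 1.83 each. CA2 had a region at chr5:4762368-4762543, near the gene end, in the 3 WT drought libraries with 6.08, 1.97 and 3.94. SBPASE reached 7.60, 8.32 and 5.13 in WT drought and was called in 1 library each of WT control and mta drought. PRK and DiT1 had a region near the gene start beside the one near the end, and EMB3119 had one 148 bases from its start in 2 libraries each of mta control and mta drought and in no WT library.

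**Figure D5:**
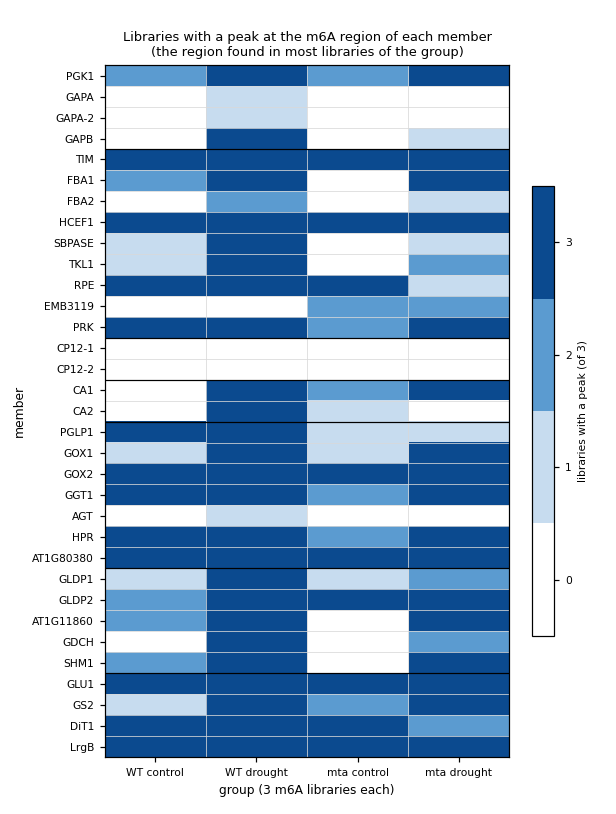
Number of m6A libraries, of 3 per group, with a peak at the region of each member found in most libraries of that group, in white for 0 to dark blue for 3. The WT drought column is the darkest, with 27 members at 2 or 3 libraries, and both CP12 rows are white throughout.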

How the data were processed

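Counts per gene were deposited by the authors for mRNA, polysomal and GMUCT libraries of rosette leaves, made with featureCounts 2.0.1 (mRNA and GMUCT) or 2.0.3 (polysomal) on whole gene spans of TAIR10, per the file headers. Introns are part of a span, and only the mRNA and polysomal counts used the strand. FastQC, Trim Galore, cutadapt, STAR, SAMtools, bedtools and MACS2 are named in the submitters' processing notes; their versions are not given in the sources used here. The columns of the authors' m6A peak lists were read by position, as fold enrichment over input (a ratio) and −log10 p and q values. Even numbers made up 95.7% to 96.8% of low counts in polysomal libraries and 44.6% to 46.9% elsewhere, so polysomal counts may hold 2 per fragment.

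The counts were tested with edgeR 4.0.16 (R 4.3.3, limma 3.58.1): genes kept by filterByExpr (minimum count 10, total 15), TMM scaling, and the quasi-likelihood F test over all 4 groups with Benjamini-Hochberg adjustment over all genes at 0.05. Polysome association and uncapped share came from 1 model over mRNA and the other assay. SE is the log2 value divided by the root of F, and 5 contrasts were tested for each of 5 measures. The count models were tested on simulated data. Alternatives were DESeq2 1.42.0, its size factors in edgeR, TMM within each assay, no filter, organelle genes left out, fits on the compared groups alone, the gene span trend removed (lowess), each library left out, and the replicate number as a block. The last was no main design because same-numbered libraries deviated together only weakly. An m6A region counted for a group if 2 or 3 of the group's libraries had a peak in it, and for a gene when it overlapped the span by at least 1 base. Tables were handled with Python 3.11.15 and pandas 2.3.3.

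The members and gene lists were chosen with earlier results of these data known. Values in every library are given for the member with most mRNA per kb and the one with the largest absolute difference of drought effects in each role group. Beside these stand up to 4 members with the largest passing values per contrast in polysome association and uncapped share, and a few others chosen after their values were seen. Of the members, 9 overlap another gene span, and GMUCT counts cannot tell the strands apart there. For GAPA and CA1 the overlapping gene is on the same strand, so the strand cannot separate the genes there in any assay. Noncoding RNA counts were not used here.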

Additional observations from a re-analysis of the deposited data

Results flagged for a closer look

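The drought effect differed between WT and mta by the test of that difference itself, an edgeR interaction term with adjustment over all genes, for several of these genes. In mRNA 6 members were higher and 13 lower in mta, against 19.6% and 18% of genes. CA1 stood at 2.06, GLDP1 at -1.43 and GOX1 at -1.18 on the log2 scale. Among the higher members, EMB3119 and both CP12 genes no longer passed with the gene span trend removed. CA1 was higher and GLDP1 and GOX1 were lower in every mta drought library than in every WT drought library. In polysome association 19 members were higher and 0 lower (24 and 0 at an unadjusted p under 0.05, 21 and 0 by DESeq2), against 6.79% and 2.8% of genes. GLU1 stood at 1.09, GOX1 at 1.07 and CA2 at 1.04. In the uncapped share 2 were higher and 2 lower, against 3.79% and 3.38% of genes. The members with the largest values were GLU1 at 1.43, GDCH at -1.09 and TKL1 at 1.05, and none of them passed by edgeR with the gene span trend removed. The values of GLU1, TKL1 and GDCH moved with gene span, and the part of span in them was not tested beyond removing its trend.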

How the results depend on the processing

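Removing the gene span trend reversed some values, and the cause was not tested. In mRNA, mta against WT in drought became -0.37 for GDCH and 0.36 for GLU1, and the difference of drought effects -0.0271 for CP12-1 and 0.39 for GLU1. In polysomal RNA, WT drought became 0.59 for CP12-1 and -0.34 for GLDP2, mta drought -0.00583 for GGT1, and mta against WT in drought -0.18 for EMB3119 and -0.0279 for CP12-1. In polysome association, WT drought became -0.0167 for GLU1, and mta drought -0.27 for TIM, 0.36 for CP12-1, 0.12 for CP12-2, -0.26 for CA1 and -0.15 for CA2. On leaving out a library, association in mta drought ran from -0.233 to 0.0545 for GAPA and from -0.0332 to 0.305 for FBA2.

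Counts of members moved by over 1.5 times as follows. In mRNA, mta against WT in control: 4 risen by DESeq2 or without organelle genes, 5 with no filter or without the span trend, and 1 risen and 4 fallen in the compared groups alone, with 1 to 5 risen and 4 to 9 fallen on leaving out a library. In polysomal RNA: 1 risen in WT drought by DESeq2 or its size factors (1 to 2 on leaving out a library), and for the difference 8 fallen by DESeq2, 7 with its size factors, 9 with no filter or without organelle genes (2 to 9). In GMUCT, mta against WT in control: 1 risen by DESeq2 or without the span trend. In polysome association, mta drought: 9 fallen by DESeq2 or TMM within assay, 8 with size factors and 3 with no filter (3 to 11, and 11 to 18 risen). In mta against WT in drought: 9 risen by DESeq2 and 7 fallen with its size factors (7 to 12). In uncapped share, WT drought: 9 fallen by DESeq2, 8 with TMM within assay, 12 with no filter, 11 without organelle genes (2 to 8); mta drought: 11 fallen with no filter, 10 without organelle genes (3 to 11), 2 risen without the span trend; mta against WT: 3 fallen in control by DESeq2 and 2 risen in drought without the span trend; the difference: 5 risen by DESeq2, 0 risen and 1 fallen without the span trend. Members with an m6A region in mta control: 9 if all 3 libraries are required (9 to 15 on leaving out a library), and at −log10 q of at least 10 there were 2, 12, 2 and 5 in WT control, WT drought, mta control and mta drought. The shares over all genes at that cut were 26.6%, 30.3%, 19.8% and 18%.

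Same-numbered libraries deviated together only weakly, with correlations of their deviations from -0.163 to 0.185. Within a group the mean was 0.037 for same-numbered and -0.018 for other pairs of GMUCT and mRNA libraries. For polysomal and mRNA libraries it was 0.018 and -0.0092. Values this weak cannot settle whether the numbers pair samples, and the m6A libraries were not part of the check. With the replicate block 42 of 50 counts were equal to those without it and 8 changed by 1 member: members lower in mta control mRNA went from 7 to 8. The fallen went from 29 to 28 in mta drought polysomal RNA, from 5 to 4 in mta drought association and from 6 to 5 in mta drought uncapped share. Association lower in mta drought went from 12 to 11. In GMUCT the number of lower members went down by 1 each in control, in drought and for the difference. GMUCT depth, at the lowest 1313457 counts, and the 3 libraries per group limit what the uncapped share can show, and a p that misses the threshold does not show equal values.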
